A study of Drosophila melanogaster with 21 samples.

Results

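The fly genes named as cuticle proteins were followed in adult heads across feeding state and Crtc genotype. They were picked by symbol alone, as every gene of the deposited tables whose FlyBase symbol opens with Cpr and a digit, with Twdl, with Ccp84A or with Lcp and a digit. This gave 120 of 17559 listed genes: 70 Cpr, 26 Twdl, 17 Lcp and 7 Ccp84A genes, 3 annotated pseudogenes among them (Lcp1Psi, Lcp65APsi and TwdlU). Knockout heads came from flies labelled as lacking Crtc, a coactivator of the transcription factor CREB, and control heads from flies labelled w1118. All flies were 3 to 5 days old on standard medium, and both genotypes were sampled after 16 hours of fasting or while fed. The libraries compared were 2 fasted and 3 fed knockout heads and 2 fasted and 3 fed control heads, made from polyadenylated RNA. The labels give neither the Crtc allele nor the sex of the flies, nor whether replicates came from separate flies, and the p-values therefore reflect the spread among these libraries only, which can be technical.

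The insect cuticle is a layered coat of chitin fibres and protein that the epidermis secretes at its outer face. Most Cpr, Lcp and Ccp84A genes encode secreted proteins with the Rebers and Riddiford domain, which binds chitin, and Twdl genes encode Tweedle proteins, a separate family that shapes the larval body. Many of these genes are used at a single moult or stage, and the Lcp group was named from larval cuticle. In the adult head, cuticle makes the capsule, the bristles, the antennae and the mouthparts, and also the clear corneal lens over each facet of the eye. Cpr72Ec and Cpr66D are known as corneal lens proteins, together with Crystallin and Retinin.

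The deposited tables hold no value per library, and levels are therefore given as means. A base mean is the authors' average, over all libraries of a comparison, of read counts divided by a size factor per library. The 4 tables cover the same 10 libraries cut in 2 ways, by genotype and by feeding state, which allowed the mean of each of the 4 groups to be rebuilt on 1 scale from the base means and folds. These reconstructed group means carry no standard deviation, and whether single libraries of 2 groups overlap could not be read. Folds are the authors' log2 folds with their standard errors, which were drawn in towards 0, the more so the fewer reads a gene had. Genes count as called where the adjusted p of the authors' DESeq2 run was below 0.05, and genes without a deposited adjusted p count as not tested. The base means summed to between 3465010 and 4405826 normalized counts in the authors' deposited tables, and depth per library is unknown. The targeted gene was at a base mean of 0.36 over knockout libraries and 339.7 over control libraries in the authors' deposited tables. The eye-colour gene white, whose mutation gives the w1118 stock its name, had a base mean of 4.94 over knockout and 80.1 over control libraries in the authors' deposited tables. The stocks thus differ beyond Crtc, and loss of Crtc cannot be told apart from other differences between them.

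Few cuticle protein genes were measurable in these heads. The base mean was below 1 in all 4 of the authors' deposited tables for 64 of the 120 genes, and 29 of those were listed at 0 throughout. A further 36 genes peaked between 1 and 10, and 20 reached 10 in at least 1 of the authors' deposited tables. Only 16 reached 10 in all of the authors' deposited tables, and 6 of these reached 100. A listing at 0 need not mean that the RNA was absent, since the photoreceptor gene ninaA was also listed at 0 in the authors' deposited tables.

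The measurable genes were nearly all of the Cpr type. Of 70 Cpr genes, 18 reached a base mean of 10 in at least 1 of the authors' deposited tables, and of 26 Twdl genes TwdlG and TwdlT did. None of the 17 Lcp genes did, and their highest base mean was 2.51, for Lcp65Ag2, in the knockout fasting comparison of the authors' deposited tables. The Ccp84A genes peaked at 2.45, for Ccp84Ag, in the control fasting comparison of the authors' deposited tables. At least 1 of the authors' deposited tables gave an adjusted p for 28 Cpr, 5 Twdl, 1 Lcp and 1 Ccp84A gene, 35 in all. The 5 Twdl genes were TwdlG, TwdlT, TwdlU, TwdlW and Twdlalpha, and the last 3, TwdlU being an annotated pseudogene, had base means between 1.38 and 5.31 in the authors' deposited tables.

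**Figure D1:**
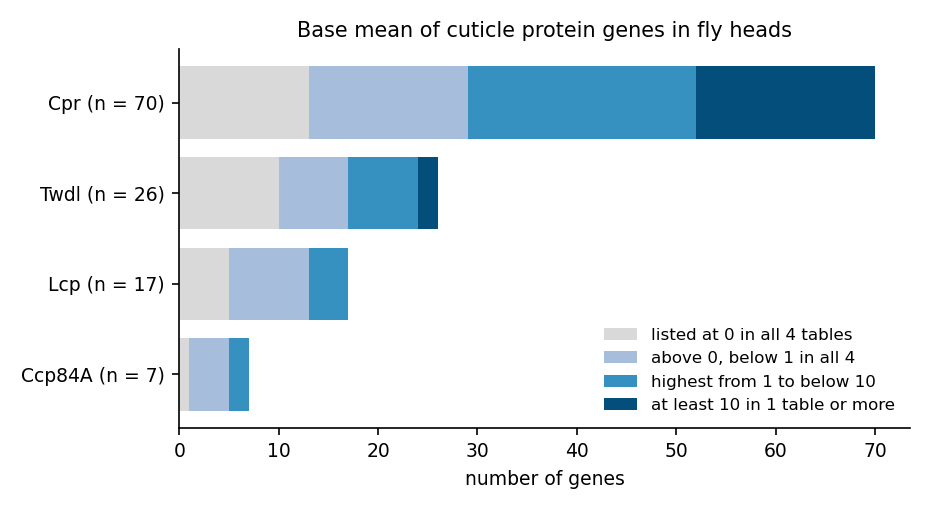
Number of cuticle protein genes (x axis) by family (y axis), divided by the highest base mean in the 4 deposited tables, from listed at 0 (grey) to at least 10 (dark blue). The dark part holds 18 Cpr and 2 Twdl genes and no Lcp or Ccp84A gene.

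Per length of transcript, a handful of genes held most of the cuticle signal. Dividing the average base mean by the annotated exon length gave 4253 normalized counts per kilobase for Cpr72Ec, 58.3% of the sum over all 120 genes on that scale. Cpr65Au followed at 1437 per kilobase, Cpr67B at 578 and Cpr49Ag at 324, and these 4 genes made up 90.4% of the per-length sum. Cpr49Ae stood at 141 per kilobase, Cpr62Bb at 86.9 and Cpr47Ee at 54.3. The highest Tweedle gene, TwdlG, reached 47.2 normalized counts per kilobase. Cpr66D, the other lens gene among them, had a base mean between 10.4 and 15.1 in the authors' deposited tables.

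Of 10 clusters of at least 4 genes, 6 held no gene that reached a base mean of 10, and the other 4 held between 1 and 3. The 65A cluster on chromosome arm 3L (6130386 to 6161589 in BDGP6.54) holds 18 of the genes, of which 12 stayed below a base mean of 1 in all tables, and Cpr65Au alone reached 10. Cpr65Au (6131242 to 6132109, minus strand) shares 491 of its 526 exon bases with asRNA:CR46005 on the other strand, which had base means between 0.58 and 2.34 in the authors' deposited tables. The sources used here do not say whether counting was by strand, so reads of either gene may count for the other. The 49A cluster on 2R (12376626 to 12415170) holds 8 genes, and Cpr49Ae, Cpr49Af and Cpr49Ag reached 10. In the 47E cluster on 2R (11251751 to 11278445) Cpr47Ee and Cpr47Ef, which lie side by side on opposite strands, did so among 7 genes. The row of 12 Twdl genes on 3R (26619118 to 26641054), which includes TwdlD, stayed below 1 throughout, and so did 5 of the 7 Ccp84A genes on 3R (6686728 to 6704903). Among the chromosome arms, 2R and 3L each had 7 genes that reached 10, 3R had 5, X had 1 and 2L had 0 of its 6.

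In fasted heads, 6 cuticle protein genes were higher in Crtc knockouts than in controls and 0 were lower. They include the lens gene Cpr72Ec and the next most abundant genes per length, Cpr65Au and Cpr67B, with Cpr49Ae, Cpr100A and Cpr11B. Of 28 genes tested, 21.4% were called, against 5.39% of all genes tested in the authors' deposited table (3.43% higher and 1.97% lower). The median log2 fold was 0.30 over the tested cuticle genes and -0.02 over all tested genes of the authors' deposited table.

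Cpr72Ec (FBgn0036619, 3L, 16365894 to 16367340, minus strand) had a reconstructed group mean of 9479 normalized counts in fasted knockout heads and 5259 in fasted control heads. It was 6099 in fed knockout heads and 4223 in fed control heads, so both knockout groups stood above both control groups. The log2 fold was 0.79 ± 0.18 in fasted heads (adjusted p = 0.000411) and 0.49 ± 0.16 in fed heads (adjusted p = 0.0398) in the authors' deposited tables. Averaged over both feeding states, which share no library, knockout heads were higher by 0.64 ± 0.12 on the log2 scale (adjusted p = 2.53e-06, normal test with Benjamini-Hochberg adjustment over 8557 genes). The lens gene retinin, named here after its values were seen, did not pass in that average (-0.24 ± 0.16, adjusted p = 0.526, same test), and in fed heads it was lower at -0.71 ± 0.23 (adjusted p = 0.0378) in the authors' deposited table. Crys, which encodes Crystallin, stood at 0.56 ± 0.35 in fasted and 0.20 ± 0.27 in fed heads, neither called per the authors' deposited tables (adjusted p = 0.670 and 1.000). Cpr66D stood at -0.16 ± 0.36 in fasted and 0.30 ± 0.29 in fed heads, also not called per the authors' deposited tables.

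Cpr65Au had a group mean of 862 in fasted knockout and 386 in fasted control heads, a 2.23-fold ratio. Its fed group means were 1051 in knockout and 677 in control heads, a 1.55-fold ratio. The log2 folds were 1.05 ± 0.20 in fasted and 0.59 ± 0.15 in fed heads per the authors' deposited tables (adjusted p = 1.56e-05 and 0.00207). Cpr67B (FBgn0035985, 3L, 9404797 to 9406174, plus strand) reached 1097 in fasted knockout heads, against 564 in fasted control heads. Its fed groups lay close together, at 402 in knockout and 363 in control heads. It was called in fasted heads at 0.87 ± 0.20 (adjusted p = 0.000562) and not in fed heads at 0.13 ± 0.18 (adjusted p = 1.00) in the authors' deposited tables.

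Cpr49Ae had its lowest group mean in fasted controls, at 197 in fasted knockout and 69.0 in fasted control heads, while fed heads held 229 in knockout and 163 in control. The fold was 1.27 ± 0.26 in fasted heads (adjusted p = 6.82e-05) and 0.41 ± 0.21 in fed heads (adjusted p = 0.467) in the authors' deposited tables. Its neighbour Cpr49Ag, at 196 in fasted knockout against 125 in fasted control heads, had 0.54 ± 0.26, which was not called per the authors' deposited table (adjusted p = 0.325). Cpr100A was 3.27-fold higher in fasted knockout than in fasted control heads by group mean, at 62.1 against 19.0, and was called at 1.18 ± 0.33 (adjusted p = 0.00948) in the authors' deposited table.

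Among the tested cuticle genes, Cpr11B (FBgn0030398, X, 12553124 to 12554235, plus strand) had the largest deposited fold between genotypes in both feeding states. Its base mean was 40.8 over the knockout libraries and 7.54 over the control libraries in the authors' deposited tables. Knockout heads were higher by 2.11 ± 0.34 in the fasted and 1.04 ± 0.29 in the fed state per the authors' deposited tables (adjusted p = 3.42e-08 and 0.00906). With shrinkage undone, these folds were 3.12 ± 0.50 and 1.87 ± 0.52 on the log2 scale. On that scale the low-count gene Cpr62Ba stood above it in fed heads, at 3.12 ± 0.83, and several other genes with few reads reached larger values than Cpr11B. Cpr11B overlaps the span of hwt on the opposite strand and shares 0 exon bases with it, and hwt itself stood at -0.09 ± 0.20 and -0.01 ± 0.17 in the authors' deposited tables.

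In fed heads 5 cuticle protein genes were higher in knockouts and 1 was lower. Of 34 tested genes 17.6% were called, against 4.75% of all genes in the authors' deposited table (2.27% higher and 2.49% lower). Next to Cpr72Ec, Cpr65Au and Cpr11B, the low-count genes Cpr60D and Cpr62Ba were higher, at 0.96 ± 0.29 and 1.02 ± 0.27 per the authors' deposited table (adjusted p = 0.0212 and 0.00558). Cpr60D had a base mean of 20.3 over knockout and 7.04 over control libraries, and Cpr62Ba one of 9.96 and 1.37, in the authors' deposited tables. The 1 lower gene was Cpr47Ee, whose group means were 59.2 in fed knockout and 112 in fed control heads. It stood at -0.71 ± 0.23 (adjusted p = 0.0406) in fed heads and at -0.04 ± 0.30 (adjusted p = 0.999) in fasted heads in the authors' deposited tables. Both fasted groups were near its fed knockout level, at 61.5 in knockout and 64.2 in control heads. Adjusting over all listed genes with no filter put the fed calls of Cpr72Ec and Cpr47Ee just above the threshold, so that neither was called (adjusted p = 0.0530 and 0.0541, Wald test with Benjamini-Hochberg adjustment).

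**Figure D2:**
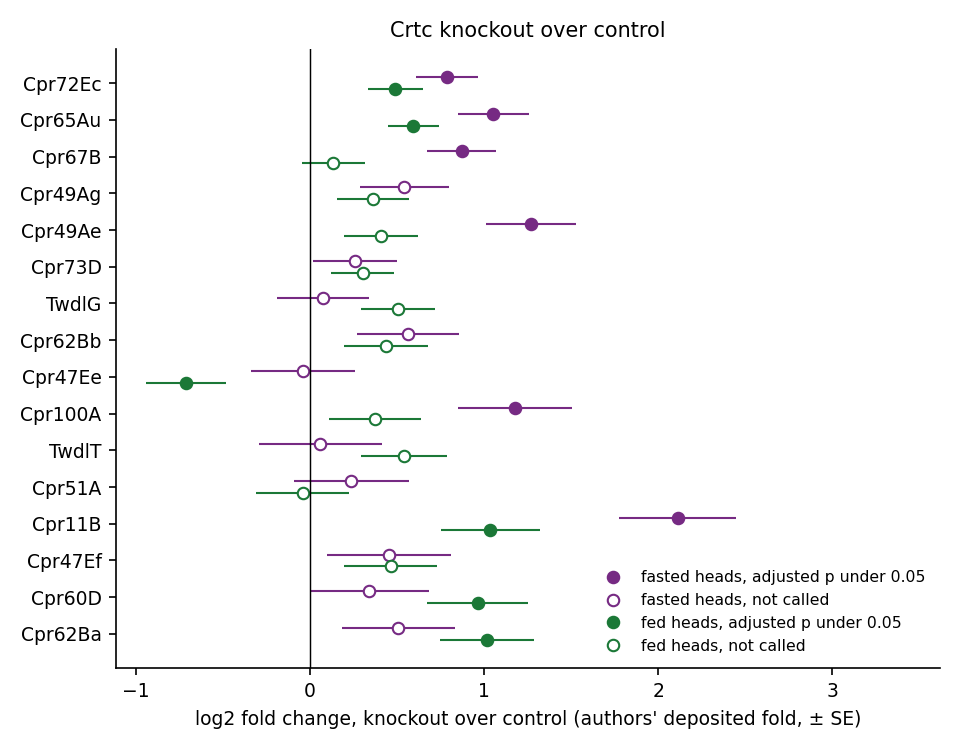
Log2 fold, Crtc knockout over control, with standard error (x axis) for 16 cuticle protein genes (y axis, by base mean) in fasted heads (purple) and fed heads (green), from the authors' deposited tables; filled circles have an adjusted p under 0.05. Fasted heads have 6 filled circles, all right of 0, and fed heads have 5 right of 0 and Cpr47Ee left of it.

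The knockout fold was above 0 in both feeding states for 12 of the 16 genes that reached a base mean of 10 in all of the authors' deposited tables, and below 0 in both for 1. Over all 8430 genes that met that minimum, 32.0% were above 0 in both of the authors' deposited tables. In the average of fasted and fed heads 6 cuticle genes were called higher and 0 lower of 17 tested, or 35.3%, against 10.2% of all genes tested (5.63% higher and 4.62% lower). These were the 6 genes called in fasted heads. Cpr11B averaged 1.57 ± 0.22, Cpr49Ae 0.84 ± 0.17, Cpr65Au 0.82 ± 0.13, Cpr100A 0.78 ± 0.21 and Cpr67B 0.50 ± 0.13 on the log2 scale (adjusted p = 6.35e-11, 1.97e-05, 2.69e-09, 0.00364 and 0.00313, normal test with Benjamini-Hochberg adjustment). Under a t distribution with 6 degrees of freedom, 2 of the 6 passed, Cpr11B and Cpr65Au.

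Genes of some other head tissues moved in the same comparisons. Over all tested genes of the authors' deposited tables, 5.39% were called in fasted and 4.75% in fed heads. Photoreceptor genes, which serve light detection in the cells beneath the lens, were called higher for 4 of 15 tested in fasted and 5 of 15 in fed knockout heads in the authors' deposited tables, with 1 and 0 lower. Summed over 15 photoreceptor genes, the group means were 380322 and 411531 in fasted and fed knockout heads, against 308331 and 268885 in fasted and fed control heads. The arrestin gene Arr2 stood at 0.78 ± 0.18 in fasted and 1.06 ± 0.14 in fed heads in the authors' deposited tables. The folds were uneven, with Rh6 at 3.55 ± 0.20 in fasted and 3.85 ± 0.18 in fed heads in the authors' deposited tables. The 1 lower gene was trpl, at -0.59 ± 0.18 in fasted heads (adjusted p = 0.0205) in the authors' deposited table. Muscle genes had 11 of 17 tested called higher and 1 lower in fasted heads, and 3 and 1 of 18 in fed heads, in the authors' deposited tables. Their sum over 14 genes was 25019 in fasted knockout against 14765 in fasted control heads, and 25333 in fed knockout against 22849 in fed control heads. Fat body genes had 4 of 12 called higher and 0 lower in fasted heads, and 2 higher and 1 lower of 13 in fed heads, in the authors' deposited tables. Regulators of epidermis and trachea had 0 of 11 called in both of the authors' deposited tables. In each, 8 of 11 folds were above 0, with medians of 0.24 in fasted and 0.10 in fed heads. Their summed group means lay between 5705 and 6153 in the 4 groups. In the average of fasted and fed heads 1 of 11 was higher and 0 lower, near the 10.2% of all genes called. This was ovo, at 0.63 ± 0.21 (adjusted p = 0.0262, normal test with Benjamini-Hochberg adjustment). Neuronal genes had 0 of 14 called in both of the authors' deposited tables, and glial genes 0 of 10 in fasted and 2 lower of 10 in fed heads in the authors' deposited tables. For lists this short, a count of 0 lies near the shares over all genes. The part of these tissues in the cuticle gene differences was not tested. In whole heads, fewer cells of a type and less RNA per cell cannot be told apart.

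**Figure D3:**
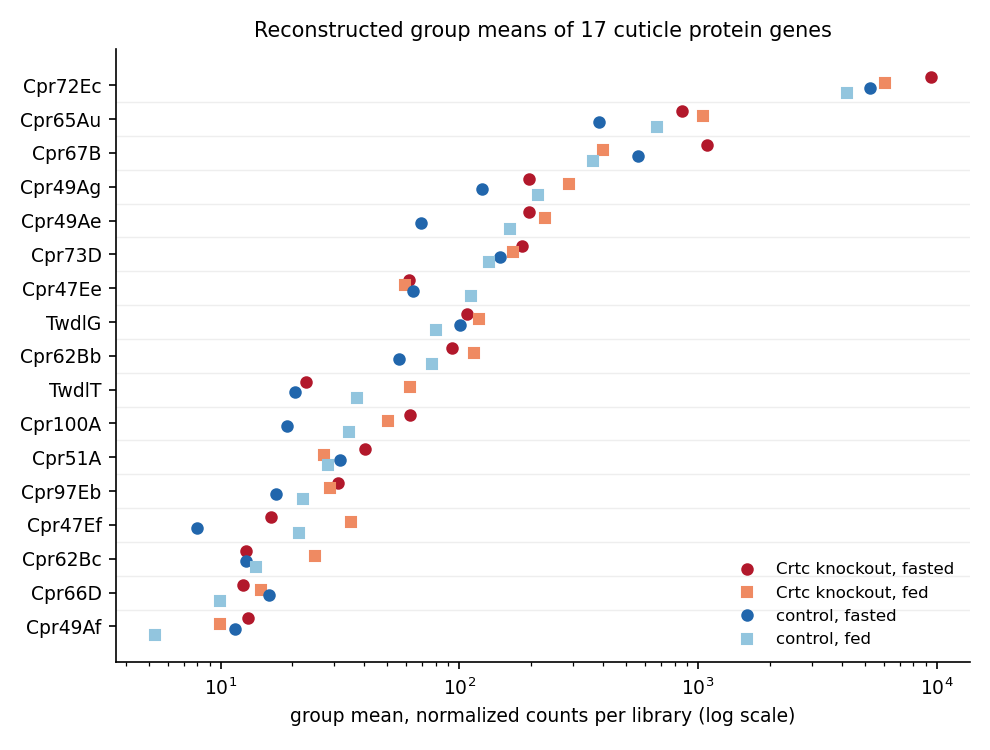
Reconstructed group mean in normalized counts per library (x axis, log scale) of 17 cuticle protein genes (y axis) in fasted (dark circles) and fed (light squares) heads of Crtc knockout (red and orange) and control (blue) flies; 3 genes that reached a base mean of 10 are left out because their group means could not be rebuilt within 0.1 on the log2 scale. The knockout points of Cpr72Ec lie right of both control points, while the fasted control point of Cpr49Ae (69.0) lies left of its other 3.

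In knockout heads fasting changed 4 cuticle protein genes, and the lens gene Cpr72Ec was among them. Cpr67B, Cpr72Ec and Cpr11B rose and TwdlT fell, 4 of 30 tested or 13.3%, against 3.26% of all genes tested in the authors' deposited table (2.76% higher and 0.498% lower). Cpr67B was 2.73-fold higher in fasted than in fed knockout heads by group mean, with a log2 fold of 1.32 ± 0.18 (adjusted p = 8.75e-11) in the authors' deposited table. Cpr72Ec rose by 0.59 ± 0.17 (adjusted p = 0.0205) and Cpr11B by 1.06 ± 0.28 (adjusted p = 0.00599) in the authors' deposited table. The other lens genes differed among themselves. In knockout heads retinin rose by 0.83 ± 0.26 (adjusted p = 0.0398) in the authors' deposited table. Cpr66D (-0.13 ± 0.31) and Crys (0.10 ± 0.30) were not called there. TwdlT, the 1 Tweedle gene called in any comparison, had a group mean of 22.7 in fasted and 62.1 in fed knockout heads. It fell by 1.02 ± 0.29 (adjusted p = 0.0148) in the authors' deposited table. Its gene span overlaps that of RYa-R on the same strand, with 0 shared exon bases, and RYa-R stood at -0.20 ± 0.31 in the authors' deposited table.

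In control heads, 3 cuticle protein genes were lower after fasting and 0 were higher. Cpr49Ae, Cpr65Au and Cpr49Ag fell, 3 of 24 tested or 12.5%, against 3.84% of all genes tested in the authors' deposited table (2.19% higher and 1.65% lower). The log2 folds were -1.0 ± 0.22, -0.74 ± 0.16 and -0.67 ± 0.20 (adjusted p = 0.00039, 0.000142 and 0.0232) in the authors' deposited table. By group mean, Cpr49Ae stood at 69.0 in fasted and 163 in fed control heads, and Cpr49Ag at 125 and 214. Cpr67B had a fold of 0.55 ± 0.19 and Cpr47Ee one of -0.65 ± 0.22, neither called per the authors' deposited table (adjusted p = 0.0919 and 0.0894). The sample descriptions place 1 fed library of each genotype in a processed file that covers fed heads alone. Whether such files mark batches is not stated, and values within them could not be computed without libraries. In this table muscle genes had 5 of 16 tested called lower and 0 higher, and fat body genes had 4 of 11 lower and 1 higher, in the authors' deposited table. In knockout heads, where 3.26% of all genes tested were called, 0 of 18 muscle genes were called in the authors' deposited table. Fat body genes had 2 of 12 lower and 1 higher there. The part of muscle and fat body in the cuticle gene changes was not tested.

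**Figure D4:**
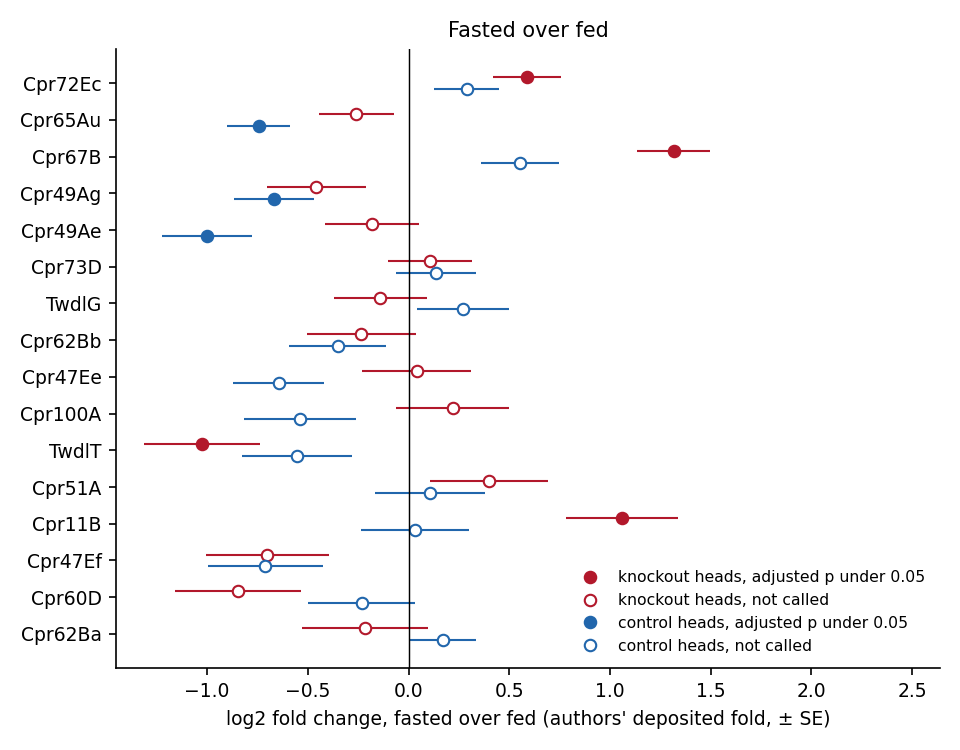
Log2 fold, fasted over fed, with standard error (x axis) for the same 16 genes in knockout heads (red) and control heads (blue), from the authors' deposited tables; filled circles have an adjusted p under 0.05, and Cpr62Ba has no adjusted p in control heads. Knockout heads have 3 filled circles right of 0 and TwdlT left of it, and control heads have 3, all left of 0.

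Averaged over both genotypes, whose fasting tables share no library, the cuticle genes split in 2 directions. Cpr67B and Cpr72Ec were higher in fasted heads, by 0.93 ± 0.13 and 0.44 ± 0.12 on the log2 scale (adjusted p = 1.76e-10 and 0.00431, normal test with Benjamini-Hochberg adjustment over 8474 genes). Cpr65Au, Cpr49Ae, Cpr49Ag, TwdlT and Cpr47Ef were lower, between -0.50 ± 0.12 for Cpr65Au and -0.79 ± 0.20 for TwdlT (adjusted p = 0.000948 and 0.00169, same test). Cpr47Ef, at -0.71 ± 0.21, was not called in either of the authors' deposited fasting tables and passed in the average (adjusted p = 0.0129, same normal test). These 7 of 16 tested are 43.8%, against 6.97% of all genes tested (5.10% higher and 1.88% lower). The median of the 16 was -0.22 and that of all tested genes -0.02. Under a t distribution with 6 degrees of freedom Cpr67B alone passed.

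Among 16 cuticle genes tested, no fasting response was shown to differ between the genotypes. The difference, knockout minus control, passed for 0 of 16 genes, against 0.802% of all genes tested, while 3 of the 16 had an unadjusted p under 0.05. Those 3 were Cpr67B at 0.76 ± 0.26, Cpr49Ae at 0.82 ± 0.32 and Cpr65Au at 0.49 ± 0.24 on the log2 scale (adjusted p = 0.266, 0.549 and 1.000, normal test with Benjamini-Hochberg adjustment). Cpr11B, whose control base mean was below the minimum of 10, was not tested, and its difference was 1.03 ± 0.39 on the log2 scale. A called response in 1 genotype alone, as for Cpr72Ec, Cpr67B, Cpr49Ae and Cpr65Au, is therefore no test of a difference. Rescaling the scores by their central spread, which was below that of a standard normal, brought Cpr49Ae and Cpr67B past the threshold.

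The remaining genes of the naming rule had smaller or unsteady values. Cpr73D had group means of 183 and 168 in fasted and fed knockout heads, against 148 and 133 in fasted and fed control heads, and was not called in the deposited tables, the averages or the difference. It shares 294 exon bases with Ogdh, a mitochondrial enzyme gene on the opposite strand with base means from 2940 to 3931 in the authors' deposited tables. TwdlG had a group mean of 121 in fed knockout and 79.8 in fed control heads. Cpr62Bb had 93.1 in fasted knockout and 55.7 in fasted control heads, and Cpr51A 40.4 in fasted knockout and 31.6 in fasted control heads. None of these 3 was called in any comparison. Cpr97Ea, named after its values were seen, had a base mean of 2.44 over knockout and 12.7 over control libraries in the authors' deposited tables. It was not called when fasted (-0.66 ± 0.34) or fed (-0.77 ± 0.28) per the authors' deposited tables (adjusted p = 0.421 and 0.106). In the average of both states, where it was tested only without the minimum on base means, it was called lower, at -0.72 ± 0.22.

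Cuticle proteins outside the naming rule had members called by genotype in both directions. Of 17 tested genes of other cuticle and chitin-binding proteins, 1 was higher and 1 lower in fasted knockout heads, and 2 were higher and 1 lower in fed ones, in the authors' deposited tables. Over all genes, 5.39% were called in fasted and 4.75% in fed heads in the authors' deposited tables, and the counts of the lists that follow stand against the same shares. The median of these cuticle genes, as a log2 fold, was 0.26 in fasted and 0.21 in fed heads in the authors' deposited tables, where all tested genes had medians of -0.02 and 0.00. Vajk4, of the Vajk cuticle protein family, was higher by 1.13 ± 0.29 and 0.77 ± 0.25 in fasted and fed heads (adjusted p = 0.00289 and 0.0455), and Vajk2 by 0.71 ± 0.23 in fed heads (adjusted p = 0.0418), in the authors' deposited tables. Acp65Aa, an adult cuticle protein gene of the 65A region, went the other way at -1.35 ± 0.35 and -1.55 ± 0.29 (adjusted p = 0.00404 and 5.25e-06) in the authors' deposited tables. Its base mean was 1.69 over knockout and 26.1 over control libraries in the authors' deposited tables. With fasting, Vajk4 was higher in knockout heads by 0.77 ± 0.25 (adjusted p = 0.0493) in the authors' deposited table. It was the 1 gene called of 17 tested there, and 0 of 16 were called in control heads. Over all genes, 3.26% were called with fasting in knockout and 3.84% in control heads in the authors' deposited tables. Both counts lie near those shares. The chitin-binding gene obst-A passed only in the average over genotypes, at -0.88 ± 0.21 (adjusted p = 0.000659, normal test with Benjamini-Hochberg adjustment).

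Among genes that make and modify chitin, those called by genotype were lower in knockout heads. Of those tested, 0 of 26 were higher and 2 lower when fasted, and 0 of 29 higher and 2 lower when fed, in the authors' deposited tables. Over all genes, 3.43% were called higher and 1.97% lower when fasted, and 2.27% and 2.49% when fed. Counts of 0 higher thus lie near those shares. The chitin genes had medians of -0.08 in both of the authors' deposited tables. The chitin deacetylase gene Cda5 was lower in both states, at -0.92 ± 0.20 and -0.81 ± 0.17 (adjusted p = 0.000341 and 0.00013), in the authors' deposited tables. The other lower genes were the chitinase-like growth factor genes Idgf1 in fasted heads (-1.32 ± 0.23, adjusted p = 5.63e-07) and Idgf6 in fed heads (-0.65 ± 0.19, adjusted p = 0.013) in the authors' deposited tables. With fasting, Gfat2, whose product opens the hexosamine path to the chitin precursor, rose by 0.79 ± 0.21 in knockout and 0.82 ± 0.18 in control heads (adjusted p = 0.00729 and 0.000287) in the authors' deposited tables. Idgf1 rose in control heads too, by 1.19 ± 0.18 (adjusted p = 7.8e-09), in the authors' deposited table. In the average over genotypes, 6 of 23 tested chitin genes were higher with fasting and 0 lower, against 5.10% and 1.88% of all genes (normal test with Benjamini-Hochberg adjustment), Gfat2 and the 5 growth factor genes Idgf1, Idgf2, Idgf3, Idgf5 and Idgf6. The chitin synthase gene kkv had base means between 6.69 and 12.7, and none of the authors' deposited tables called it.

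Tanning genes, which darken and harden cuticle, had 1 of 15 tested higher and 0 lower in fasted knockout heads, and 2 higher and 1 lower of 16 in fed ones, in the authors' deposited tables, with medians of 0.20 and 0.05. Over all genes, 3.43% were called higher in fasted heads, and 2.27% higher and 2.49% lower in fed heads, in the authors' deposited tables. The yellow family gene yellow-e was higher by 1.35 ± 0.34 when fasted and 0.86 ± 0.24 when fed (adjusted p = 0.00222 and 0.0122), and yellow-d by 1.07 ± 0.19 when fed (adjusted p = 2.94e-06), in the authors' deposited tables. The gene e, whose enzyme joins beta-alanine to dopamine, was lower in fed knockout heads at -0.68 ± 0.22 (adjusted p = 0.0496) in the authors' deposited table. With fasting, Pu, the GTP cyclohydrolase gene of pterin synthesis, fell in control heads by 0.70 ± 0.15 (adjusted p = 0.000303) in the authors' deposited table. For knockouts its fasting fold was -0.41 ± 0.17, not called per the authors' deposited table (adjusted p = 0.287). Pu alone was called among 15 tanning genes tested for control fasting, while knockout fasting gave 0 of 16. Over all genes, fasting calls made up 3.84% for controls and 3.26% for knockouts per the authors' deposited tables. On lists this short, counts of 1 and 0 lie near those shares and are no test of a difference between genotypes. Matrix genes with a zona pellucida domain, which tie the epidermis to the cuticle above it, had 2 of 8 higher in fasted and 1 of 7 higher in fed knockout heads in the authors' deposited tables, with 0 lower and medians of 0.47 and 0.36. These were pio (0.83 ± 0.23, adjusted p = 0.00699) and qsm (0.84 ± 0.24, adjusted p = 0.0134) in fasted heads and dy (1.09 ± 0.27, adjusted p = 0.00291) in fed heads in the authors' deposited tables. In fasted control heads pio fell by 0.72 ± 0.20 (adjusted p = 0.0102) in the authors' deposited table.

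The list for cuticular hydrocarbons, the waxy outer film, had 1 of 8 tested higher in fasted and 2 of 8 in fed knockout heads in the authors' deposited tables, with 0 lower and medians of 0.34 in both. The elongase gene CG18609 stood at 2.37 ± 0.36 in fasted heads (adjusted p = 3.2e-09) and at -0.01 ± 0.23 in fed heads (adjusted p = 1.00) in the authors' deposited tables. In knockout heads it rose with fasting by 1.94 ± 0.31 (adjusted p = 9.25e-08) in the authors' deposited table. Its base mean was 19.1 over knockout and 2.88 over control libraries in the authors' deposited tables. The fatty acid synthase gene FASN2 and the palmitoyltransferase gene app, which is not an enzyme of wax synthesis, were higher in fed knockout heads at 1.12 ± 0.29 and 0.69 ± 0.16 (adjusted p = 0.00355 and 0.000491) in the authors' deposited table. Moulting hormone genes and their nuclear receptors had 0 called in any of the authors' deposited tables, of 26 to 29 tested. Over all genes, 3.84% and 3.26% were called with fasting in control and knockout heads in the authors' deposited tables. By genotype, 5.39% were called in fasted and 4.75% in fed heads. For a list of this length, counts of 0 lie near those shares. Hr38, a nuclear receptor gene, was lower in knockouts in the average of fasted and fed heads at -0.51 ± 0.18 (adjusted p = 0.0456, normal test with Benjamini-Hochberg adjustment).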

How the data were processed

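Polyadenylated RNA of fly heads was sequenced by the authors, per the labels' protocols. TopHat2, STAR, Cuffdiff, DESeq2, dm3 and dm6 are named as the authors' tools and builds in the submitters' processing notes, without roles, and the aligner, build and strand setting of the tables are not given here. The base mean, a signal over libraries, was deposited by the authors in each of 4 tables. The authors deposited log2 folds, with standard errors on the same scale. Deposited Wald scores matched fold divided by standard error to 2.7e-07. The p-values, raw and adjusted, are the authors' deposited ones from DESeq2. Counts per library were not used here, so no depth or interval per library is given.

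Library numbers in the tables' names differ from those in the labels. They were read as a renumbering that skips the CREB mutant heads. For 4701 genes with base means of 100 or more, the sum over knockout and control libraries equalled that over fasted and fed libraries within 0.0019 on the log2 scale, once each table was scaled (1.17, 0.949 and 1.19 for knockout, fasted and fed, relative to control). Shrinkage was undone with the normal prior that the ceiling of the standard errors gives, and each table's base mean was split into 2 group means. The routes through the genotype and the feeding tables differed by a median of 0.00823 log2 units over 8430 genes, and group means are given where they were within 0.1. This step was chosen after seeing the data.

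Symbols came from a name table (17253 of 17559 identifiers matched), positions and exon lengths from the Ensembl annotation of BDGP6.54. Differences and means of 2 folds were tested against a normal distribution over genes whose base mean reached 10 in both tables, in Python 3.11.15 with scipy 1.17.1. The calculation was run on simulated folds with normal noise of the deposited standard errors. Such folds check the calculation only, and cannot show whether a normal test suits 2 or 3 libraries per group. Genes named are those called in any comparison and the 12 highest base means. In the other lists, the genes named were mainly those called in a deposited table or in an average. Some others, such as Crys, kkv, Cpr66D and genes that overlap a named one, were named without meeting that rule. The members and lists were chosen with earlier results of these data known. Alternatives were other thresholds, filters, scalings and a t distribution. CREB and Sik2 mutants and bodies are not analysed here.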

Additional observations from a re-analysis of the deposited data

How the results depend on the processing

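No paired analysis was possible because the tables hold no value per library, and for the same reason no replicate could be left out. The counts of called cuticle genes moved as follows. At an adjusted p under 0.01 knockout fasting had 2, fed knockout against control 3 and control fasting 2. With an own adjustment and no filter, fed knockout against control had 4 (Cpr47Ee and Cpr72Ec lost). At a base mean of at least 50, knockout fasting had 2, fasted knockout against control 4 and fed knockout against control 3, since genes with fewer reads were not tested. With an own adjustment at a base mean of at least 10, fed knockout against control had 5 (Cpr62Ba lost). With rescaled scores control fasting had 5, fed knockout against control 5 (Cpr62Ba lost), and the difference of the fasting response 2. The mean genotype difference had 9 with no filter (8 higher and 1 lower, with Cpr60D and Cpr62Ba gained as higher and Cpr97Ea as lower), 4 at a base mean of at least 50 and 2 under the t distribution. The mean fasting response had 7 as reported, 5 at a base mean of at least 50 and 1 under the t distribution. It had 6 at an adjusted p under 0.01 and 6 with rescaled scores, Cpr47Ef being lost in both. Of 503 repeats over 103 gene and comparison pairs tested as reported, 479 kept their side of the threshold, 20 lost and 4 gained a call. That tally includes genes not called as reported, which could gain but not lose a call, so it overstates how steady the calls were. Genes tested only without the minimum on base means are not in that tally. Except for unshrunken folds, these settings reuse the same folds, so the direction could not change. Over all genes, the t distribution gave 0 calls against 68 for the difference, 208 against 877 for the mean genotype difference and 102 against 591 for the mean fasting response, and rescaled scores gave 280 for the difference. The cause was not tested except where stated. Low counts limit the rest: 64 of 120 genes had a base mean below 1 throughout.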
